A study of Mus musculus with 4 samples.

Results

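The 10 genes described here make, read or act beside methylation of lysine 9 of histone H3 (H3K9) in heterochromatin: Suv39h1, Setdb1, Ehmt1 and Ehmt2, Cbx1, Cbx3 and Cbx5, Trim28, Atrx and Daxx. They were taken by name from a table of 22686 genes, and all 10 were found. Suv39h1 and Atrx lie on the X chromosome and the other 8 on autosomes. Expression and its split between parental alleles had been measured by RNA-seq in epiblast stem cells (EpiSCs), pluripotent cells of the primed state, derived from female mouse embryos at E6.5. The 4 groups were Smchd1 MD1/MD1 with XistdeltaA/+, Smchd1 +/+ with XistdeltaA/+, Smchd1 MD1/MD1 with Xist1lox/+ and Smchd1 +/+ with Xist1lox/+. In every group a C57BL6/J parent had been crossed with an F1 of JF1 and C57BL6/J. All groups carried an Xist mutation, so none was wild type at Xist. Each group was 1 library, and the labels do not say how many embryos or cell lines stood behind it. Differences within a pair of libraries therefore have no replicate check.

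The series asks what SmcHD1, an SMC-family protein of the inactive X, does for blocks of H3K9 trimethylation on that chromosome. SUV39H1, SETDB1 and the partners EHMT1 and EHMT2 are methyltransferases that act on H3K9. The HP1 proteins, encoded by Cbx1, Cbx3 and Cbx5, bind the methylated lysine. TRIM28 brings SETDB1 to sites bound by KRAB zinc finger proteins. ATRX and DAXX work together to place the histone variant H3.3 in heterochromatin.

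Smchd1 was low in both MD1/MD1 libraries, with an FPKM (fragments per kilobase of transcript, scaled to sequencing depth) of 6.68 against 27.0 in +/+ with XistdeltaA/+, and 5.98 against 20.9 in +/+ with Xist1lox/+. Xist reads were 99.5% to 99.9% paternal in all 4 libraries, so the paternal X was the one that transcribed Xist. Reads assigned to an allele numbered 7301034 to 8008500 a library. All 8 primed epiblast markers were expressed in every library and summed to 1090.3 to 1595 FPKM, lowest in +/+ XistdeltaA/+. In that library Pou5f1 (551 FPKM) and Dnmt3b (144 FPKM) were at their lowest, and Otx2 (80.9 FPKM) and Zic2 (96.2 FPKM) at their highest. The 6 naive pluripotency markers summed to 57.3 to 86.3 FPKM, nearly all of it from Klf4 and Klf2, with Dppa3 listed at 0 in every library. Both XistdeltaA/+ libraries stood apart in markers of other cells. The 8 macrophage markers summed to 979.8 FPKM in MD1/MD1 XistdeltaA/+ and 23.8 FPKM in +/+ XistdeltaA/+, and to 314 FPKM in MD1/MD1 and 349 FPKM in +/+ with Xist1lox/+. Tyrobp and Emr1 were listed at 0 in +/+ XistdeltaA/+ alone. The 8 fibroblast markers summed to 119.8 FPKM in MD1/MD1 XistdeltaA/+ and 43.1 FPKM in +/+ XistdeltaA/+, and to 57.9 FPKM in MD1/MD1 and 56.6 FPKM in +/+ with Xist1lox/+. In bulk RNA, fewer cells of a type and less RNA per cell cannot be told apart. The part of these other cells in the results below was not tested.

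The total level of each gene was compared first. No gene of the 10 passed the test for Smchd1 genotype. limma's test over all 4 libraries, on log2(FPKM + 1) with Xist mutation as a second term, called 0 of the 10 at a threshold of 0.05 on the adjusted p, and before adjustment 0 were below 0.05. Over all 11471 genes tested it called 0.0349%. Smchd1 itself, with log2 ratios of -1.87 and -1.65, had an adjusted p of 0.173 in limma's test and was not called. A miss by this test is therefore no sign of an unchanged level. On allele-assigned reads edgeR and DESeq2 called 0 of the 9 genes other than Cbx3, which had such reads in 1 library only. Within each pair 0 of the 10 differed by 2-fold or more, where 5.73% of all genes did so in the XistdeltaA/+ pair and 0.819% in the Xist1lox/+ pair, and 0.244% did so the same way in both. The median log2 ratio of the 10 genes, MD1/MD1 over +/+, was -0.045 in the XistdeltaA/+ pair and 0.073 in the Xist1lox/+ pair. Over all genes tested the medians were -0.048 and 0.0040. The range over the 4 libraries was a median of 0.34 on the log2 scale for the 10 genes, from 0.12 for Setdb1 to 0.73 for Daxx, and 0.43 for all genes tested.

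**Figure D1:**
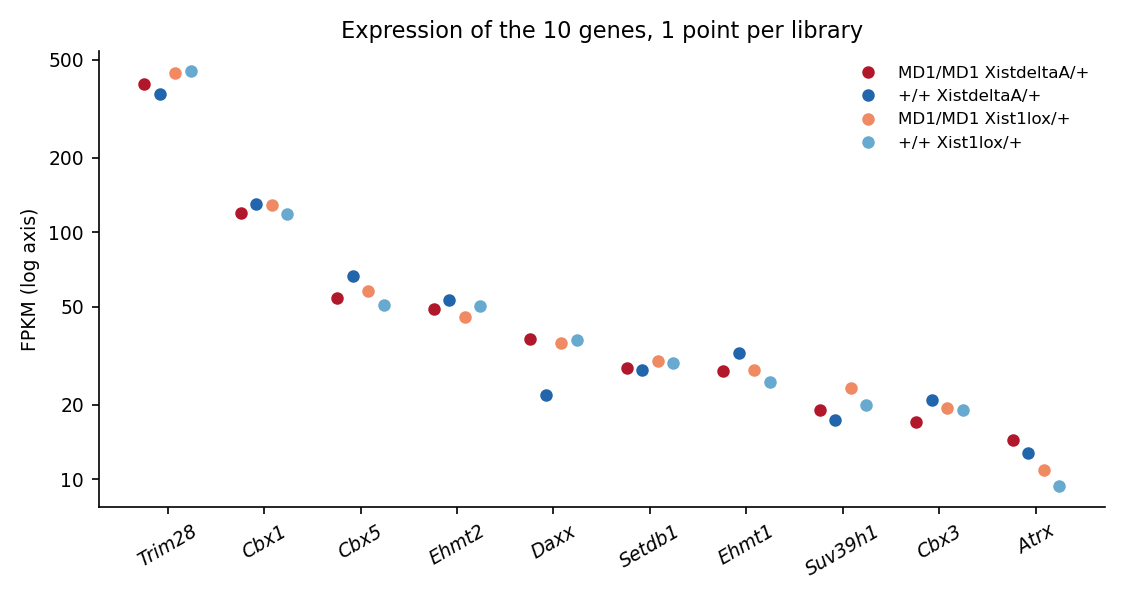
FPKM of each of the 10 genes (log axis) in each of the 4 libraries, 1 point per library, ordered by mean level. Trim28 lies highest at 364 to 448 FPKM and Atrx lowest at 9.35 to 14.4 FPKM, and the Daxx point of the +/+ XistdeltaA/+ library, at 22.0 FPKM, lies below its other 3.

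By mean FPKM over the 4 libraries the order was Trim28 (413), Cbx1 (124), Cbx5 (57.4), Ehmt2 (49.4), Daxx (32.9), Setdb1 (28.9), Ehmt1 (28.1), Suv39h1 (19.9), Cbx3 (19.1) and Atrx (11.9). The ranges over libraries overlapped between Cbx5 and Ehmt2, between Daxx and Setdb1, between Setdb1 and Ehmt1, and between Suv39h1 and Cbx3, so these neighbours were not separated. The other neighbours in the order did not overlap. Trim28 ranked at the 98.9 percentile of genes tested and Atrx at the 49.4 percentile.

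Suv39h1 encodes a methyltransferase known for H3K9 trimethylation at pericentric repeats (mm9, chromosome X, 7638297 to 7651886). Its paternal allele was read in both MD1/MD1 libraries and in neither +/+ library. Paternal reads were 34 of 270 (12.6%, 95% interval 8.88 to 17.2) in MD1/MD1 XistdeltaA/+, against 0 of 216 in +/+ XistdeltaA/+, which allows a share of up to 1.39%. In MD1/MD1 Xist1lox/+ they were 49 of 322 (15.2%, 11.5 to 19.6), against 0 of 307 in +/+ Xist1lox/+, which allows up to 0.977%. These limits for a count of 0 are 3 reads over the total. Intervals are exact Clopper-Pearson intervals, whose upper ends for the same zeros are 1.69% and 1.19%. Both cover counting error only. Fisher's exact test (two-sided) with Benjamini-Hochberg adjustment over 341 X-linked genes gave an adjusted p of 5.5e-09 for the XistdeltaA/+ pair and 7.3e-15 for the Xist1lox/+ pair. With 1 library a group, such a p describes these libraries and not the genotypes. A share higher in MD1/MD1 was common on the X: 46% of the 341 genes passed in the first pair, 41.1% in the second and 35.8% in both, while 2.05% were lower in both. Of the 2 X-linked genes described here, 1 was higher in both pairs and 0 were lower. Suv39h1 ranked 47 and 30 of 341 by the size of its rise. A low share in every cell and a high share in a few cells cannot be told apart here.

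Atrx encodes a chromatin remodeller (chromosome X, 102992956 to 103124711), and its paternal allele was nearly silent in all 4 libraries. Paternal reads were 4 of 1068 (0.375%, 0.102 to 0.956) in MD1/MD1 XistdeltaA/+, against 0 of 787 in +/+ XistdeltaA/+. In MD1/MD1 Xist1lox/+ they were 0 of 717, against 1 of 719 (0.139%) in +/+ Xist1lox/+. By the limit of 3 reads the counts of 0 allow shares of up to 0.381% in +/+ XistdeltaA/+ and 0.418% in MD1/MD1 Xist1lox/+. Fisher's exact test gave adjusted p-values of 0.238 and 1, and Atrx ranked 244 and 273 of 341 by its difference. The depth behind Atrx was greater than that behind Suv39h1, and its exact intervals in MD1/MD1 ended at 0.956% and 0.513%, below the lower ends of 8.88% and 11.5% for Suv39h1.

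The stretches around the start sites that RefSeq gives for both X-linked genes are shown because their paternal alleles were read so differently. Each runs from 250 bases before to 50 bases after a start, 5′ to 3′ on the gene's strand, in GRCm38.p6, a later build than the mm9 of the measurements. Capitals mark CG dinucleotides, the sites of DNA methylation, which are known to be methylated at silent promoters of the inactive X.
Suv39h1, chrX:8074312-8074611: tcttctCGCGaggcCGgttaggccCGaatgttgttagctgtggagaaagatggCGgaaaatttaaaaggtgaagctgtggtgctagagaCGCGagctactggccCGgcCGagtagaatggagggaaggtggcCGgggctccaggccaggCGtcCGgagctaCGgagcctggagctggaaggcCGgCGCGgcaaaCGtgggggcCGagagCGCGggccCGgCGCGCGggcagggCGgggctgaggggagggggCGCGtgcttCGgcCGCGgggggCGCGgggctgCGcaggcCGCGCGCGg
Suv39h1, chrX:8074711-8075010: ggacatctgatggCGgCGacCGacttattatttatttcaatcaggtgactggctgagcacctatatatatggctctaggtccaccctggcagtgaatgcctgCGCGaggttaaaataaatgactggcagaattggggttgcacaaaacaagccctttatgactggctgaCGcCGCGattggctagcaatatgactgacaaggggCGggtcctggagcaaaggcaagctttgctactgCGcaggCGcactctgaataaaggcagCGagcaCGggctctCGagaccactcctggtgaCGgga
Atrx, chrX:105929323-105929622: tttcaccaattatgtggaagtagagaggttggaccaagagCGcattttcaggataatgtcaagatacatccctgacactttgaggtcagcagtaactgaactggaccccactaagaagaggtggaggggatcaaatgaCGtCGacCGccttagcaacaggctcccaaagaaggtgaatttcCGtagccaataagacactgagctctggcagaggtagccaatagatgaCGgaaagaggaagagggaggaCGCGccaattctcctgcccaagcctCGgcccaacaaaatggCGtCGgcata
The first Suv39h1 stretch holds 37 CG, a number that 5.58% of the 32851 promoters in the RefSeq table reach. The second holds 15 and the Atrx stretch holds 11, which 34.6% and 41.4% of promoters reach, and the median promoter holds 7. All 10 genes had an entry, 16 in all, with 8 to 40 CG and a median of 30.5. Methylation was not measured here, so the count is a description of the reference sequence.

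**Figure D2:**
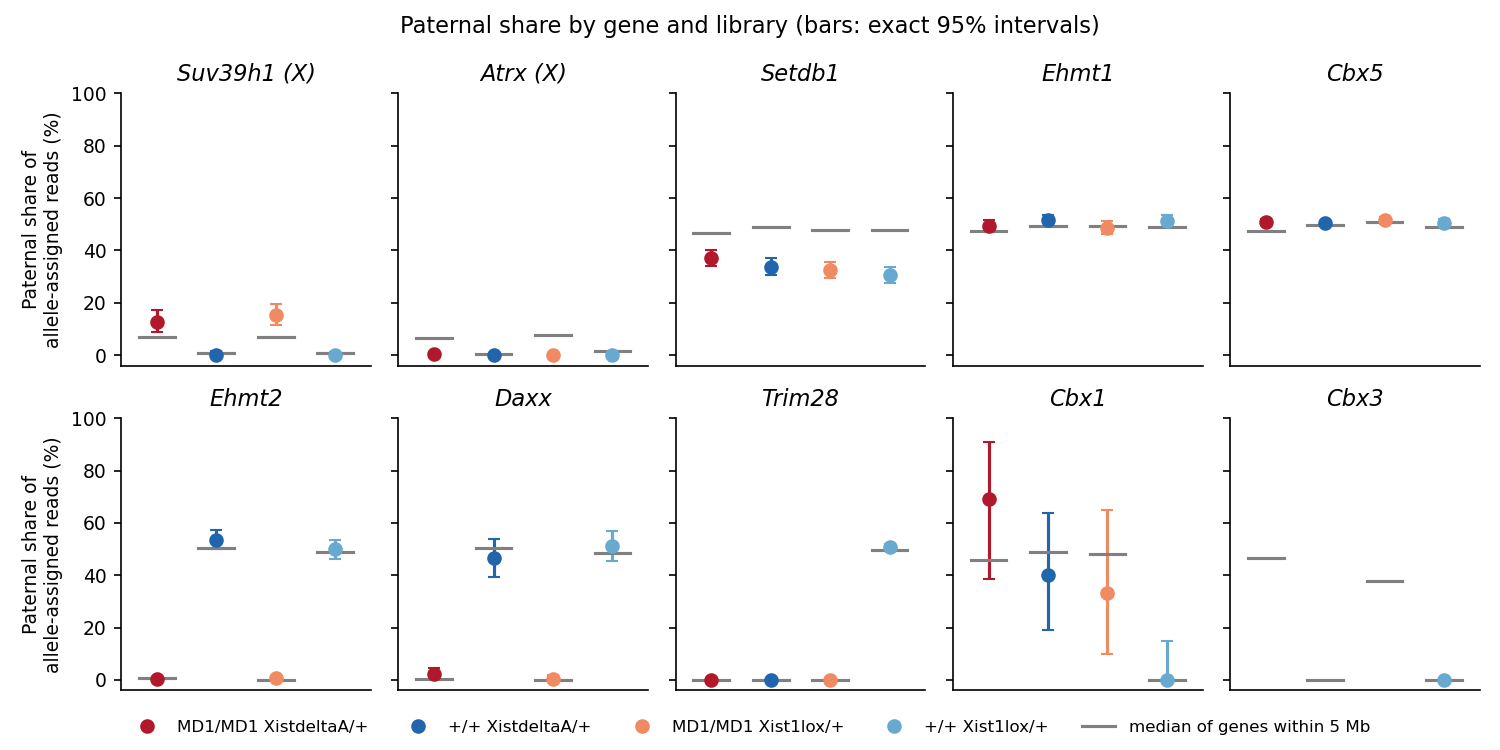
Paternal share of allele-assigned reads (percent) for each gene, 1 point per library with its exact 95% interval, and the median share of genes within 5 Mb as a grey line. Suv39h1 is above 0 in both MD1/MD1 libraries, at 12.6% and 15.2%, Atrx reaches at most 0.375%, and Setdb1 lies below its surroundings in all 4.

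Splitting FPKM by the share of reads gave the output of each allele. The paternal Suv39h1 allele gave 2.39 FPKM in MD1/MD1 XistdeltaA/+ and 3.56 FPKM in MD1/MD1 Xist1lox/+, and 0 in both +/+ libraries. The maternal allele gave 16.6 FPKM against 17.3 in +/+ with XistdeltaA/+, and 19.8 against 19.99 in +/+ with Xist1lox/+. Total Suv39h1 was 19.0 FPKM in MD1/MD1 and 17.3 in +/+ with XistdeltaA/+, and 23.4 in MD1/MD1 and 19.99 in +/+ with Xist1lox/+. The genotypes overlapped. Those totals differed by 1.64 and 3.40 FPKM, MD1/MD1 minus +/+, beside differences of the paternal part of 2.39 and 3.56. The total level missed limma's threshold, with a mean log2 ratio of 0.17 (95% interval -0.25 to 0.59) and an adjusted p of 0.937. With Smchd1 genotype as the only term and 1 library left out, that ratio was 0.026 without MD1/MD1 Xist1lox/+ and 0.31 without MD1/MD1 XistdeltaA/+, the lowest and the highest of the 4 such fits.

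Atrx, in contrast, had its difference almost wholly in the maternal part. Its FPKM was 14.4 in MD1/MD1 against 12.7 in +/+ with XistdeltaA/+, and 10.9 against 9.35 in +/+ with Xist1lox/+. Here too the genotypes overlapped. The difference of the maternal part, MD1/MD1 minus +/+, was 1.65 and 1.55 FPKM, and that of the paternal part 0.054 and -0.013 FPKM. The mean log2 ratio of total Atrx was 0.18 (-0.26 to 0.62, limma adjusted p = 0.937). That ratio turned to -0.0049 without the MD1/MD1 XistdeltaA/+ library and to -0.021 without the +/+ Xist1lox/+ library, in fits with Smchd1 genotype as the only term.

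**Figure D3:**
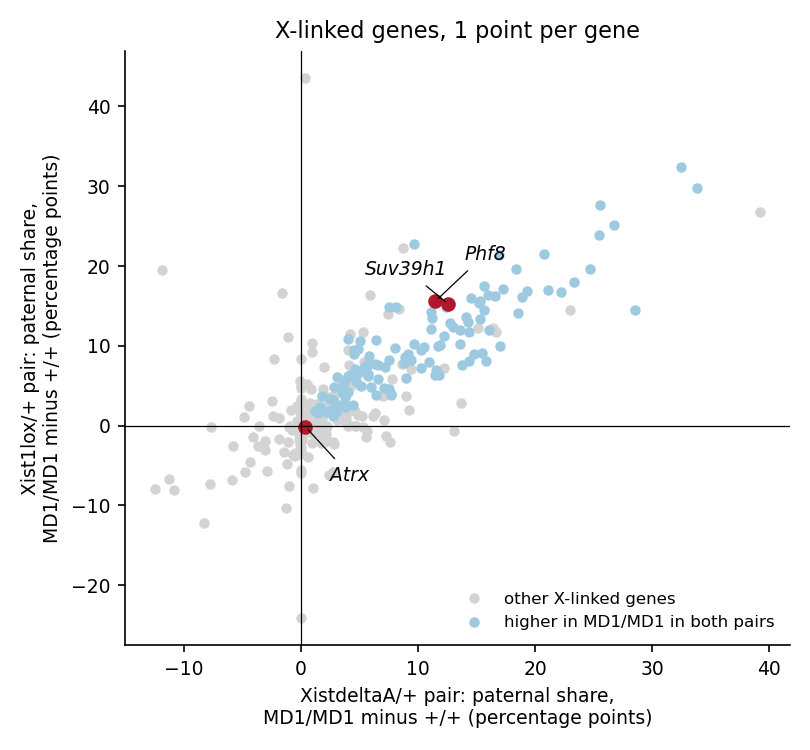
Difference in paternal share, MD1/MD1 minus +/+, in percentage points for 341 X-linked genes, with the XistdeltaA/+ pair on the horizontal axis and the Xist1lox/+ pair on the vertical axis. Suv39h1 and Phf8 lie close together at 11.5 to 15.6 points and Atrx lies next to 0.

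The genes around Suv39h1 were mixed. Of the 5 measured genes on each side, at -167 to 177 kb by their lower coordinates, 4 had a higher share in MD1/MD1 in both pairs by Fisher's exact test, namely Pqbp1, Timm17b, Hdac6 and Ftsj1. Ftsj1, an RNA methyltransferase gene, had shares of 14.4% and 11.7% in MD1/MD1 and 0% in both +/+ libraries. Hdac6, the nearest gene measured on one side, encodes a cytoplasmic deacetylase and had 5.91% in MD1/MD1 against 0.482% in +/+ with XistdeltaA/+, and 7.30% against 0.363% with Xist1lox/+. Rbm3, at 77.8 kb, encodes a cold-inducible RNA-binding protein and stayed at 0.159% and 0% in MD1/MD1. The median share of genes within 5 Mb of Suv39h1 was 6.80% in MD1/MD1 against 0.647% in +/+ with XistdeltaA/+, and 7.11% against 0.629% with Xist1lox/+.

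The measured genes around Atrx were spread more widely, and among the 4 nearest on each side Cox7b had a higher share in both pairs. Magt1, the nearest, encodes a magnesium transporter and was at 0.795% and 0.592% in MD1/MD1 and 0% in both +/+ libraries. Cox7b, a subunit of cytochrome c oxidase, was at 1.16% in MD1/MD1 against 0% in +/+ with XistdeltaA/+, and at 1.99% against 0.131% with Xist1lox/+. Pbdc1, at -718 kb, was at 22.2% in MD1/MD1 against 24.6% in +/+ with XistdeltaA/+, and at 30.7% against 22.4% with Xist1lox/+. Genes within 5 Mb of Atrx had median shares of 6.38% and 7.83% in the MD1/MD1 libraries, above those of Atrx itself.

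**Figure D4:**
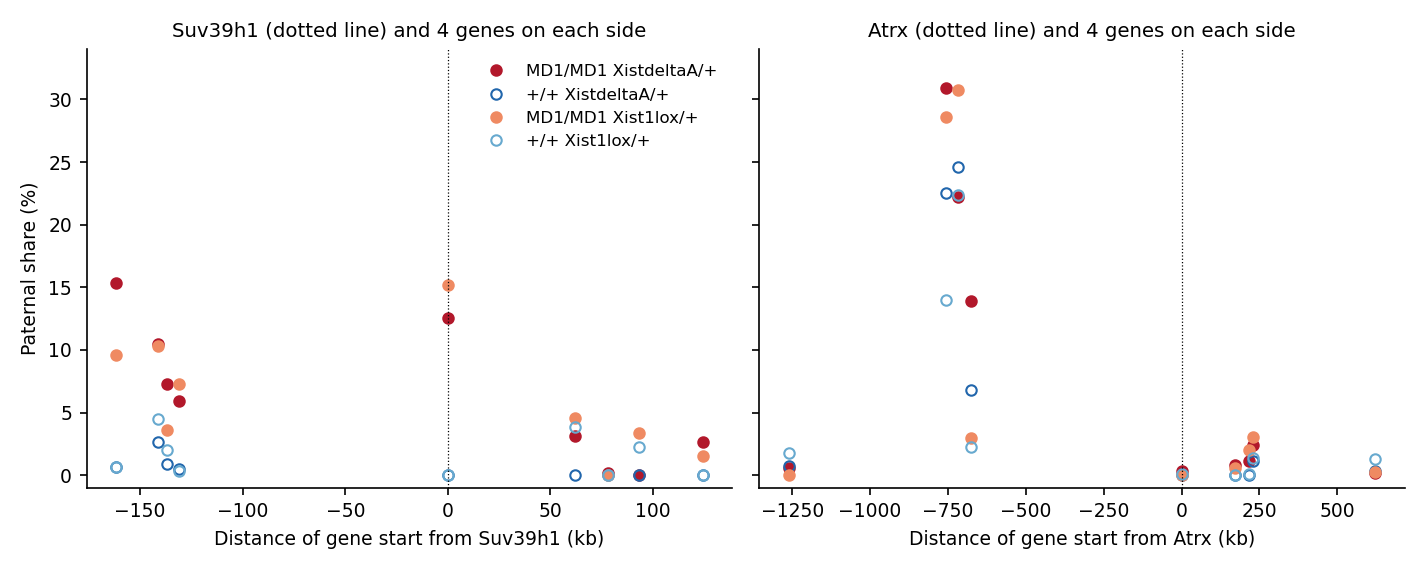
Paternal share (percent) of Suv39h1, Atrx and the 4 measured genes on each side, against the distance between the lower coordinates of each gene and the named gene (kb). Filled points are MD1/MD1 and open points +/+ libraries. Among the filled points Suv39h1 stands above Wdr13, Rbm3, Tbc1d25 and Ebp on one side, while Atrx lies level with Magt1.

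Over the 4 libraries the genes whose paternal shares were most like those of Suv39h1 were Phf8, Pqbp1 and Acsl4, with summed differences of 1.49, 2.44 and 2.91 points among 237 X-linked genes with at least 100 reads in every library. Tro, Tspan6 and Pola1 were nearest to Atrx, at 0.109, 0.152 and 0.290 points. Phf8 also belongs to the list of H3K9 demethylases. It encodes a demethylase of H3K9 and H4K20 (chromosome X, 147955215 to 148068400). Its paternal reads were 22 of 192 (11.5%, 7.32 to 16.8) in MD1/MD1 against 0 of 159 in +/+ with XistdeltaA/+, and 26 of 167 (15.6%, 10.4 to 22.0) against 0 of 195 with Xist1lox/+. Fisher's exact test gave adjusted p-values of 4.9e-06 and 3.3e-09. Phf8 thus passed in both pairs, as did 35.8% of the 341 genes.

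Setdb1 encodes the methyltransferase that works with TRIM28 to silence retrotransposons (chromosome 3, 95127447 to 95161124). It had the steadiest level of the 10 genes, 28.3 FPKM in MD1/MD1 and 27.8 in +/+ with XistdeltaA/+, and 30.2 in MD1/MD1 and 29.5 in +/+ with Xist1lox/+. The mean log2 ratio was 0.029 (-0.38 to 0.44, limma adjusted p = 0.991). Its alleles were read unequally in every library. The paternal share was 37.2% (34.2 to 40.3) in MD1/MD1 and 33.8% (30.5 to 37.1) in +/+ with XistdeltaA/+. It was 32.4% (29.3 to 35.6) in MD1/MD1 and 30.6% (27.6 to 33.8) in +/+ with Xist1lox/+. The intervals overlapped within each pair. All 4 lay below the median share of genes within 5 Mb, which was 46.5% to 48.8%.

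Such a low share in all 4 libraries was uncommon. Among 3360 autosomal genes with at least 200 reads in every library and surroundings at 40% to 60%, 3.72% had shares at or below the 37.2% maximum of Setdb1 in all 4 libraries. Arnt, the next measured gene, encodes a partner of hypoxia factors and was lower too, at 33.1%, 30.3%, 31.6% and 30.3% in MD1/MD1 XistdeltaA/+, +/+ XistdeltaA/+, MD1/MD1 Xist1lox/+ and +/+ Xist1lox/+. Cers2 on the other side overlaps the Setdb1 entry by 44 bases on the opposite strand and had shares of 37.3% to 47.8%. Whether reads were counted by strand is not known here, so reads in the overlap are uncertain.

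Ehmt1 and Ehmt2 encode GLP and G9a, partner enzymes known for mono- and dimethylation of H3K9. Ehmt1 (chromosome 2, 24646289 to 24775129) had 27.5 FPKM in MD1/MD1 and 32.4 in +/+ with XistdeltaA/+, and 27.6 in MD1/MD1 and 24.8 in +/+ with Xist1lox/+. Both genotypes overlapped, and the highest and the lowest library were both +/+. The mean log2 ratio was -0.041 (-0.50 to 0.42, limma adjusted p = 0.988), and without the +/+ XistdeltaA/+ library it was 0.15 with Smchd1 genotype as the only term. Both alleles were read about equally, with paternal shares of 49.5% and 48.7% in MD1/MD1 and of 51.6% and 51.2% in +/+.

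Ehmt2 (chromosome 17, 35035437 to 35050995) was lower in MD1/MD1 in both pairs. Its FPKM was 48.9 against 53.0 in +/+ with XistdeltaA/+, and 45.5 against 50.1 in +/+ with Xist1lox/+, folds of 0.921 and 0.908. Ratios of the same sign in both pairs were found for 4 of the 10 genes and for 51.4% of all genes tested. The Ehmt2 groups did not overlap, though the share of all genes without overlap was not counted. The mean log2 ratio was -0.13 (-0.52 to 0.27), with a limma adjusted p of 0.942. Ehmt2 lies on the chromosome that carries Smchd1, and its alleles followed the region. The paternal share was 0.289% (2 of 692 reads) in MD1/MD1 against 53.6% in +/+ with XistdeltaA/+, and 0.642% (4 of 623) against 50% in +/+ with Xist1lox/+. Genes within 5 Mb had medians of 0.532% in MD1/MD1 against 50.6% in +/+ with XistdeltaA/+, and of 0.134% against 49.0% with Xist1lox/+. Since whole stretches were near 0, such a share is not read here as a silent allele. Smchd1 genotype and the alleles of this region therefore cannot be told apart for Ehmt2.

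The HP1 genes differed more among themselves than between libraries. Cbx1, encoding HP1 beta (chromosome 11, 96650450 to 96669954), had 119 FPKM in MD1/MD1 and 130.1 in +/+ with XistdeltaA/+, and 129 in MD1/MD1 and 119 in +/+ with Xist1lox/+. Cbx5, encoding HP1 alpha (chromosome 15, 103021977 to 103070247), had 54.3 FPKM in MD1/MD1 and 66.4 in +/+ with XistdeltaA/+, and 58.0 in MD1/MD1 and 50.9 in +/+ with Xist1lox/+. Cbx3, encoding HP1 gamma (chromosome 6, 51420615 to 51433703), had 17.1 FPKM in MD1/MD1 and 21.0 in +/+ with XistdeltaA/+, and 19.4 in MD1/MD1 and 19.1 in +/+ with Xist1lox/+. All 3 were lower in MD1/MD1 in the first pair and higher in the second, and the genotypes overlapped for each. Their log2 ratios were -0.13, -0.29 and -0.28 with XistdeltaA/+ and 0.11, 0.18 and 0.019 with Xist1lox/+, for Cbx1, Cbx5 and Cbx3 in turn. limma adjusted p-values were 0.998, 0.981 and 0.946.

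Of the HP1 genes Cbx5 alone had deep allele reads in all 4 libraries, 6924 to 8973. Its paternal share was 50.9% and 51.5% in MD1/MD1 and 50.4% and 50.7% in +/+. Cbx1 had 12 to 23 allele-assigned reads a library despite its high FPKM, and its intervals were wide, such as 38.6% to 90.9% in MD1/MD1 XistdeltaA/+. Cbx3 was listed with 855 allele-assigned reads in +/+ Xist1lox/+ and 0 in the other 3 libraries, although its FPKM was 17.1 to 21.0. Allele reads therefore say nothing of the level of Cbx3. The reference annotation names several processed copies of Cbx3, so its FPKM is uncertain too.

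**Figure D5:**
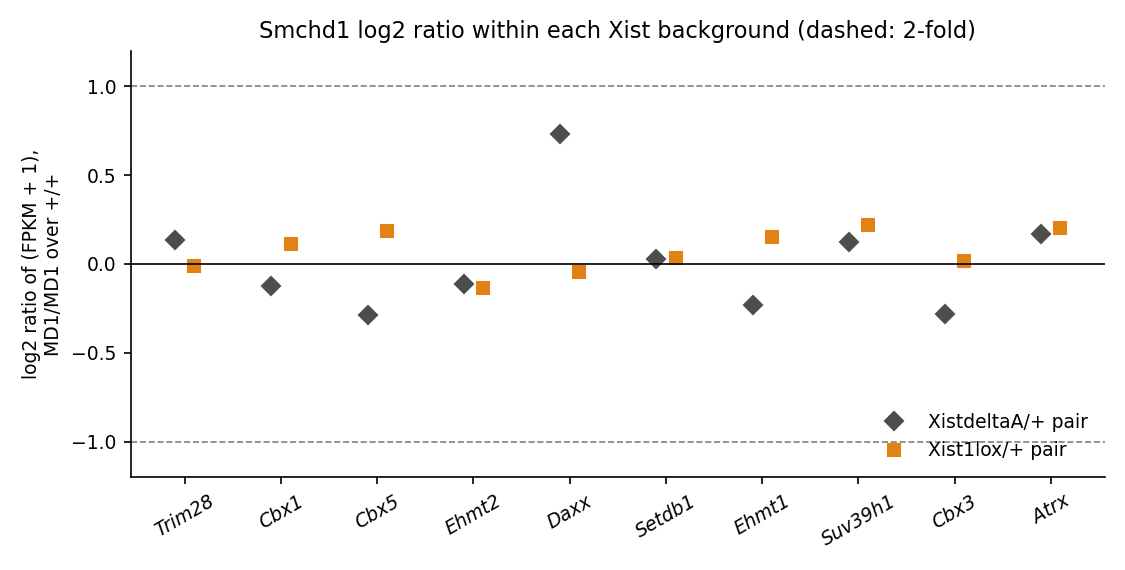
The log2 ratio of (FPKM + 1), MD1/MD1 over +/+, for each gene in the XistdeltaA/+ pair (diamonds) and in the Xist1lox/+ pair (squares), with dashed lines at 2-fold. All points lie inside the lines, and Daxx in the XistdeltaA/+ pair is farthest from 0 at 0.73.

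Trim28, the corepressor of KRAB zinc finger proteins (chromosome 7, 13609501 to 13616381), had 398.9 FPKM in MD1/MD1 and 363.9 in +/+ with XistdeltaA/+, and 443 in MD1/MD1 and 448 in +/+ with Xist1lox/+. The genotypes overlapped, and both Xist1lox/+ libraries were above both XistdeltaA/+ libraries. The mean log2 ratio was 0.059 (-0.30 to 0.42, limma adjusted p = 0.970), and it was -0.090 without the +/+ XistdeltaA/+ library, with Smchd1 genotype as the only term. Its paternal share was 50.9% in +/+ Xist1lox/+ and 0.0209% to 0.0304% in the other 3 libraries, on 8390 to 11643 reads. Genes within 5 Mb had a median of 49.5% in +/+ Xist1lox/+ and 0% in those 3. As for Ehmt2, a share near 0 is not read here as a silent allele. Smchd1 genotype and the alleles of this region cannot be told apart for Trim28 in the Xist1lox/+ pair.

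Daxx, the chaperone of H3.3 that binds ATRX (chromosome 17, 34046390 to 34052535), held the widest difference. Its FPKM was 37.1 in MD1/MD1 against 22.0 in +/+ with XistdeltaA/+, and 35.6 against 36.7 in +/+ with Xist1lox/+. One library, +/+ XistdeltaA/+, was low and the other 3 were alike. The fold in the XistdeltaA/+ pair was 1.69, and Daxx was the 1 gene of the 10 past 1.5-fold there, as 18.5% of all genes were. In the Xist1lox/+ pair 0 of the 10 passed 1.5-fold, against 3.19% of all genes. The mean log2 ratio was 0.34 (-0.24 to 0.93, limma adjusted p = 0.937), and without the +/+ XistdeltaA/+ library it was -0.015 with Smchd1 genotype as the only term. Allele-assigned reads went along, with 307 in MD1/MD1 against 187 in +/+ with XistdeltaA/+, and 291 against 314 with Xist1lox/+.

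Both Daxx alleles were low in that library. The paternal and maternal parts were 10.2 and 11.7 FPKM in +/+ XistdeltaA/+, and 18.8 and 17.9 FPKM in +/+ Xist1lox/+. In MD1/MD1 the paternal share was 2.28% (7 of 307, 0.922 to 4.64) with XistdeltaA/+ and 0.344% (1 of 291, 0.0087 to 1.90) with Xist1lox/+. The genes around it were near 0 too, with medians of 0.401% and 0.132%. The Daxx interval with XistdeltaA/+ lay above that median. As for Ehmt2, Smchd1 genotype and the alleles of this region cannot be told apart for Daxx. The low library is also the one with macrophage markers at 23.8 FPKM and with the lowest sum of primed epiblast markers, 1090.3 FPKM. The part of either in the Daxx value was not tested.

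The comparison of the Xist mutations, Xist1lox over XistdeltaA, called 0 of the 10 genes. limma called 0% of 11471 genes, with 368 at an unadjusted p under 0.05, and edgeR on allele-assigned reads called 0. Atrx had the same direction in both Smchd1 genotypes, with 10.9 FPKM in Xist1lox/+ against 14.4 in XistdeltaA/+ in MD1/MD1 cells, and 9.35 against 12.7 in +/+ cells. Its groups did not overlap, and the mean log2 ratio was -0.39 (-0.83 to 0.047, limma adjusted p = 0.927). Suv39h1, Setdb1 and Trim28 also kept their direction without overlap, higher in Xist1lox/+. Their log2 ratios were 0.29, 0.092 and 0.15 in MD1/MD1, and 0.20, 0.086 and 0.30 in +/+. Ehmt2 kept its direction, at -0.10 and -0.081, with overlap. How many of all genes keep their direction, or do not overlap, between the Xist mutations was not counted. Neither is therefore read here as a result about these genes. The Daxx log2 ratio was -0.057 in MD1/MD1 and 0.72 in +/+. Within the genotypes 0 of the 10 passed 2-fold, where 2.49% of all genes did in MD1/MD1 and 3.14% in +/+.

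Other genes of the pathway were described from 6 lists of 53 genes, of which 36 had a mean FPKM of at least 1. limma called 0 of the 36 for Smchd1 genotype, with 0 below 0.05 before adjustment, and edgeR called 0 of the 33 it kept. Of the 36, 0 reached 2-fold in either pair, where 5.73% and 0.819% of all genes did. Among 7 tested methyltransferases and cofactors the median log2 ratios were 0.15 with XistdeltaA/+ and 0.10 with Xist1lox/+. Uhrf1, which reads methylated H3K9 during replication, had 91.6 FPKM in MD1/MD1 against 82.4 in +/+ with XistdeltaA/+, and 95.2 against 88.6 with Xist1lox/+. Atf7ip, a partner that stabilises SETDB1, had 26.5 FPKM in MD1/MD1 against 20.4 in +/+ with XistdeltaA/+, and 19.3 against 15.8 with Xist1lox/+. Zfp644, another partner of EHMT1 and EHMT2, had log2 ratios of 0.022 and 0.21. Wiz, a partner of EHMT1 and EHMT2, had log2 ratios of -0.29 and 0.31. Uhrf1 and Wiz lie on chromosome 17, as Smchd1 does. The paternal share of Uhrf1 was 0.139% and 0.0416% in MD1/MD1 against 53.0% and 49.2% in +/+. That of Wiz was 0% in both MD1/MD1 libraries against 33.5% and 37.1% in +/+. The limit given for Ehmt2 therefore holds for these genes too. Suv39h2, the paralog of Suv39h1, had 9.11 FPKM in MD1/MD1 against 9.70 in +/+ with XistdeltaA/+, and 10.1 against 9.502 with Xist1lox/+.

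The 5 genes of the HUSH and MORC silencing complexes had medians of 0.0055 and 0.066. Morc2a had log2 ratios of 0.65 and -0.031, and Mphosph8, a HUSH subunit that binds methylated H3K9, of -0.41 and 0.066. Pphln1, another HUSH subunit, had 0.0055 and 0.29, and Morc3 had -0.32 and 0.22. Partners of SmcHD1 and HP1, 7 genes, had medians of 0.073 and 0.081. Lrif1, whose product binds both SMCHD1 and HP1 in human cells, had 5.41 FPKM in MD1/MD1 against 6.65 in +/+ with XistdeltaA/+, and 5.90 against 5.24 with Xist1lox/+. Lbr, a receptor at the nuclear lamina, had 64.5 FPKM in MD1/MD1 against 88.9 in +/+ with XistdeltaA/+, and 71.5 against 67.6 with Xist1lox/+. Its paternal share was 49.7% in MD1/MD1 against 0% in +/+ with Xist1lox/+, so genotype and alleles cannot be told apart in that pair. Adnp, which encodes an HP1-binding protein, had log2 ratios of -0.20 and 0.071. Chaf1b, a subunit of the replication-coupled histone chaperone, had log2 ratios of 0.51 and -0.11, and Chaf1a of 0.17 and -0.0052. Chaf1a is on chromosome 17 too, with a paternal share of 0% in both MD1/MD1 libraries against 50.5% and 54.0% in +/+. It carries the same limit as Ehmt2.

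Among 8 genes for H3.3, H4K20 methylation and remodelling the medians were 0.048 and 0.071. Hira, the chaperone that places H3.3 in active chromatin, had 28.5 FPKM in MD1/MD1 against 17.4 in +/+ with XistdeltaA/+, and 31.1 against 31.0 with Xist1lox/+. As for Daxx, the +/+ XistdeltaA/+ library was low and the other 3 were alike. H3f3b, an H3.3 gene, had 272 FPKM in MD1/MD1 against 308 in +/+ with XistdeltaA/+, and 336 against 323 with Xist1lox/+, while H3f3a had log2 ratios of 0.0054 and -0.17. Chd4 and Hells had ratios of -0.079 and 0.12 with XistdeltaA/+, and 0.083 and 0.25 with Xist1lox/+. Hells, on chromosome 19, had paternal shares of 0.115% and 0.0642% in MD1/MD1 against 51.5% and 52.6% in +/+. Smchd1 genotype and the alleles read cannot be told apart for Hells either. Of 9 tested H3K9 demethylases, with medians of -0.19 and 0.078, Kdm1a was at 81.1 FPKM in MD1/MD1 against 115 in +/+ with XistdeltaA/+, and at 99.1 against 98.6 with Xist1lox/+. Jmjd1c had log2 ratios of 0.51 and 0.10, Kdm3a of -0.57 and 0.15, and Kdm4a of 0.14 and -0.12. The paternal share of Kdm3a was 50.9% in MD1/MD1 against 0% in +/+ with XistdeltaA/+. That of Jmjd1c was 46.5% against 0.209% with Xist1lox/+. Genotype and alleles cannot be told apart in those pairs.

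Germline and early embryo genes known to be silenced with the help of H3K9 methylation stayed near 0. Of 13 such genes 0 had a mean FPKM of at least 1, so none was tested. They summed to 1.05 FPKM in MD1/MD1 against 1.28 in +/+ with XistdeltaA/+, and 1.09 against 0.777 with Xist1lox/+. Stag3, a cohesin subunit of meiosis, reached the highest value of 0.808 FPKM, in +/+ XistdeltaA/+. Sycp3, Ddx4 and Tex101 followed, at or below 0.283 FPKM in each library. Mael, Magea2, Magea5, Zscan4c and Zscan4d were listed at 0 in all 4 libraries.

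By the shape of their FPKM over the 4 libraries, each of the 10 genes was set against the 11470 other genes tested. The nearest were Nudt22 and Slc2a6 for Daxx, with largest differences of 0.014 and 0.037 on the centred log2 scale, and Ddx6 for Atrx, at 0.011. Suv39h1 lay nearest to Prorsd1 and Ung, at 0.015 and 0.020, and Setdb1 nearest to Orc2 and Ntan1, at 0.013 and 0.014. For Cbx3 the nearest were Cpsf3 and Fbxo28, for Cbx1 Efhd2 and Cul5, for Cbx5 Cep85 and Glmn, for Ehmt1 Rbm33, for Ehmt2 Tmub2 and Zfp790, and for Trim28 Isy1 and Nudt16l1, at 0.0032 to 0.018. None of the 10 genes was among the nearest of another. So few of the 11470 genes were kept for each that this does not show whether the 10 varied together.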

How the data were processed

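Stranded mRNA libraries of 4 EpiSC samples were sequenced, per the labels' protocols. Cufflinks 2.2.1, Cuffdiff and mm9 are named, without their roles, per the submitters' processing notes. No source used here gives the aligner, variant set or gene annotation. The authors deposited, per the file headers, counts of allele-assigned reads, the fraction of these that is paternal (given for genes with enough reads) and FPKM. Fraction times count gave whole paternal reads for 100% of values, within 1e-06. A further 6 columns of per-sample values were not used. Coordinates count from 1.

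limma 3.58.1 with a trend fitted log2(FPKM + 1) on Smchd1 genotype and Xist mutation in 11471 genes whose mean FPKM reached 1. The fit left 1 residual degree of freedom, p-values were adjusted by Benjamini-Hochberg, and the added 1 understates changes of low genes. Fisher's exact test (scipy 1.17.1) took X-linked genes with 20 or more allele-assigned reads in each of the 4 libraries. edgeR 4.0.16 and DESeq2 1.42.0 on the counts, a pseudocount of 0.1, no filter, quantile normalization and other read minimums were alternatives. limma, edgeR and Fisher's exact test were tested on simulated data. By rule, the named genes were the 10 genes, 2 checks, the nearest genes by pattern, and the called or highest expressed of each list. Suv39h2, Lrif1, Hira, the neighbours, the 5 Mb windows and the autosomal set for Setdb1 were chosen after the values were seen. The genes and lists were chosen with earlier results of these data known. Promoters are RefSeq's. Some genes that these rules select are not reported here.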

Additional observations from a re-analysis of the deposited data

Results flagged for a closer look

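With 1 library a group, 6 of the 10 genes had log2 ratios, MD1/MD1 over +/+, of opposite sign in both Xist backgrounds, as did 5577 of 11471 genes tested. None of these differences was tested. The ratio of the XistdeltaA/+ pair minus that of the Xist1lox/+ pair was 0.77 for Daxx and 0.15 for Trim28. It was -0.47 for Cbx5, -0.38 for Ehmt1, -0.30 for Cbx3 and -0.24 for Cbx1.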

How the results depend on the processing

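Replicates could not be paired, since each group was 1 library. The libraries were matched by Xist mutation, a term of the Smchd1 comparison, and without that term it called 6 genes. With it the comparison called 4 genes, 0 without a filter on low FPKM (567 at an unadjusted p under 0.05 by limma) and 22 by DESeq2. With Smchd1 genotype as the only term it called 9 genes without MD1/MD1 XistdeltaA/+, 14 without +/+ XistdeltaA/+, 11 without MD1/MD1 Xist1lox/+ and 24 without +/+ Xist1lox/+. That leaves 1 library in an arm, assumed to vary like the others. None of the 10 genes was called in these fits, where the log2 ratios of 7 genes crossed 0. Without MD1/MD1 XistdeltaA/+, Cbx1 was 0.048 and Atrx -0.0049. Without +/+ XistdeltaA/+, Setdb1 was -0.014, Ehmt1 0.15, Cbx1 0.058, Cbx5 0.14, Daxx -0.015 and Trim28 -0.090. Without MD1/MD1 Xist1lox/+, Setdb1 was -0.016 and Trim28 -0.017. Without +/+ Xist1lox/+, Atrx was -0.021. Quantile normalization turned Cbx1 to 0.043. On allele-assigned reads, 12 to 23 a library, Cbx1 was -0.74 by edgeR and -0.75 by DESeq2, against -0.0062 on FPKM. Cbx3 was -6.43 by DESeq2, a value that rests on reads in 1 library. The Suv39h1 and Atrx shares kept their side of the threshold with 10 or 50 reads as the minimum and with adjustment over all genes, and the count of X-linked genes moved by less than 1.5 times. Depth limits the Cbx1 and Cbx3 alleles.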
